A study of Mus musculus with 10 samples.

Results

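Prostaglandin E2 is a lipid signal that many tumours make and sense, and 10 genes of its route were followed in xenograft tumours of the medulloblastoma line DAOY. They cover release of the substrate (PLA2G4A), its conversion (PTGS1, PTGS2, PTGES, PTGES2, PTGES3), export (ABCC4), breakdown (HPGD) and reception (PTGER2, PTGER4). They were picked for their known roles, with earlier results of these data known, as 10 of the 33538 human Ensembl genes in the count table, and all 10 were among the 16013 genes with enough counts to test.

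DAOY is an established human medulloblastoma cell line, here 1 line for all tumours, grown on the flank of nude mice, which lack T cells but keep other host cells. The mice, labelled female, ate ordinary chow (control, 3 libraries), or received DHA oil (docosahexaenoic acid, 3 libraries) or fish oil (4 libraries). The study's design describes an arm given DHA plus eicosapentaenoic acid (EPA), and fish oil is read as that arm here, since the labels give only the name. All tumours carry 30 days of treatment in their labels, the age of the mice is not in the labels, and no label says which mouse a library came from. A p-value here therefore reflects how samples of 1 diet differed, which may be partly technical.

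In membranes, cytosolic phospholipase A2 cuts out arachidonic acid, which the cyclooxygenases turn into prostaglandin H2 and the terminal synthases into prostaglandin E2. The product leaves the cell, binds G protein-coupled receptors on the same or neighbouring cells and is inactivated by a dehydrogenase. EPA and DHA compete with arachidonic acid at the phospholipase and cyclooxygenase steps, which is the background to asking about this route under these diets. The RNA values below say nothing of enzyme activity or of the amount of prostaglandin.

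Total counts ranged from 6187116 to 10035702 per library, and the lowest belonged to fish oil replicate 1. On the first principal component, which held 26.4% of the variance, fish oil replicates 4 and 2 stood apart at 52.9 and 21.4, while the other 8 libraries lay between -19.1 and 1.71. Values without these 2 libraries are given beside each gene's fold change of fish oil against control, and beside some other results. In bulk tumours, fewer cells of a type and less RNA per cell cannot be told apart, and reads from mouse cells that align to human genes could be among the counts.

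None of the 10 genes passed the test in any comparison of diets. edgeR's quasi-likelihood test called 0 of the 10 in DHA oil against control, where 0% of all genes tested were called, and 0 of the 10 in fish oil against control, where 0.00624% were. It called 0 of the 10 between the oils (0% of all genes) and 0 of the 10 for both oils together against control (0.131%). A joint test of any difference among the 3 diets called 0 of the 10 as well (0.0312%). DESeq2 and limma-voom also called 0 of the 10 in each of these 5 tests. At an unadjusted p under 0.05, edgeR had 0 of the 10 in DHA oil against control (2.74% of all genes), 0 in fish oil against control (3.48%), 0 for both oils together (2.62%), 1 between the oils (4.84%) and 0 in the joint test (3.39%). The 1 gene was PTGS2.

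The median log2 fold change of the 10 was -0.03 in DHA oil against control, beside 0.00 over all genes tested, and -0.01 in fish oil against control, beside 0.01. Between the oils it was 0.09, beside 0.01. The intervals were narrow enough to limit large changes for most of the 10 genes, but not for PTGS2, HPGD and PTGER2 in every comparison. The 95% interval lay inside a 2-fold change in either direction for 8 of the 10 genes in DHA oil against control, for 9 in fish oil against control and for 7 between the oils. The exceptions were PTGS2 and PTGER2 in DHA oil, PTGER2 in fish oil, and PTGS2, HPGD and PTGER2 between the oils. The share of all genes tested with such intervals was not computed. Both oils share the same 3 control libraries, so their values against control are not independent.

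**Figure D1:**
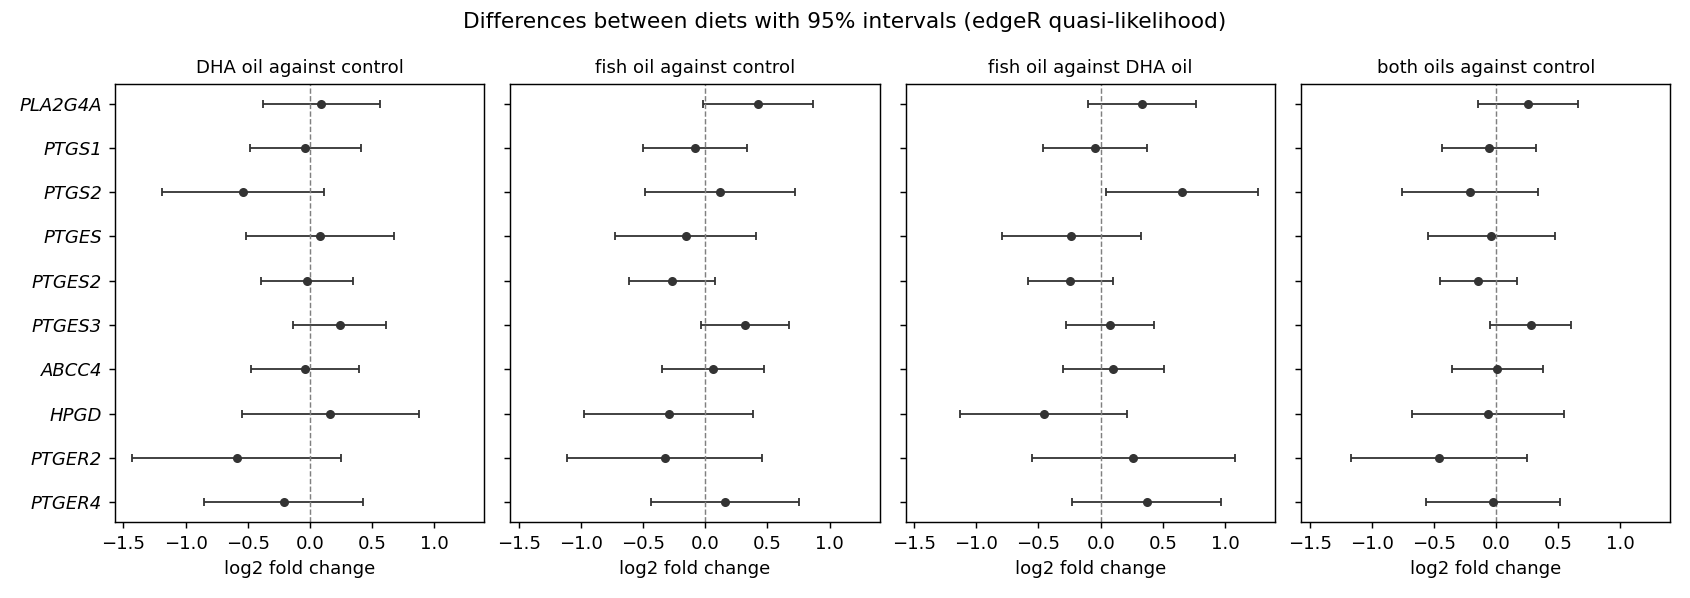
Log2 fold change (x axis) of each of the 10 genes in 4 comparisons, with 95% intervals from edgeR; the dashed line marks no difference. The 1 interval of the 40 that leaves out 0 is that of PTGS2 between the oils, from 0.04 to 1.27.

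PTGS2 (ENSG00000073756) encodes the inducible cyclooxygenase, which cells make on demand after growth factor or inflammatory signals. It stood at 27.9, 22.9 and 51.6 CPM (counts scaled to a library total of 1000000) in control replicates 1 to 3. DHA oil held 22.3, 27.1 and 20.7 CPM, and fish oil held 19.1, 43.6, 45.3 and 38.7 CPM in replicates 1 to 4. The 3 DHA oil libraries lay close together and low, whereas control replicate 3 and fish oil replicates 2, 3 and 4 were high. The controls overlapped both oils, and the oils overlapped each other only through fish oil replicate 1, the lowest library of all. The control mean was 34.1 ± 15.3 CPM (SD, n = 3). The DHA oil mean was 23.4 ± 3.29 CPM (SD, n = 3), and the fish oil mean was 36.7 ± 12.1 CPM (SD, n = 4).

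PTGS2 was 1.57-fold higher with fish oil than with DHA oil (log2 fold change 0.65 ± 0.29 SE, 95% interval 0.04 to 1.27), with an unadjusted edgeR p of 0.0384 that did not pass adjustment (adjusted p = 0.875). In 3 of 4 fish oil libraries PTGS2 was higher than in every DHA oil library. Fish oil replicate 1, the exception, was also the shallowest library. The share of all genes tested with 3 of 4 fish oil libraries set apart was not computed, here or for the genes below. With each library left out in turn, the log2 fold change ran from 0.54 without fish oil replicate 3 to 0.86 without fish oil replicate 1, and the unadjusted edgeR p from 0.00276 to 0.112. That p stayed under 0.05 in 5 of the 10 cases, and the gene was called in 0 of them. Without fish oil replicates 2 and 4, the libraries that stood apart, the log2 fold change was 0.47 (unadjusted p = 0.183 in edgeR's quasi-likelihood test). With the replicate number as a block it was 0.56 (unadjusted p = 0.0679 in edgeR's quasi-likelihood test).

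Against control, DHA oil gave PTGS2 a log2 fold change of -0.54 (95% interval -1.19 to 0.11), which spans from 2.28-fold lower to 1.08-fold higher. Control replicate 3 carried most of that value. Without it the log2 fold change was -0.12. Fish oil against control gave 0.12 (-0.49 to 0.72), which was 0.53 without control replicate 3 and -0.06 without fish oil replicates 2 and 4.

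**Figure D2:**
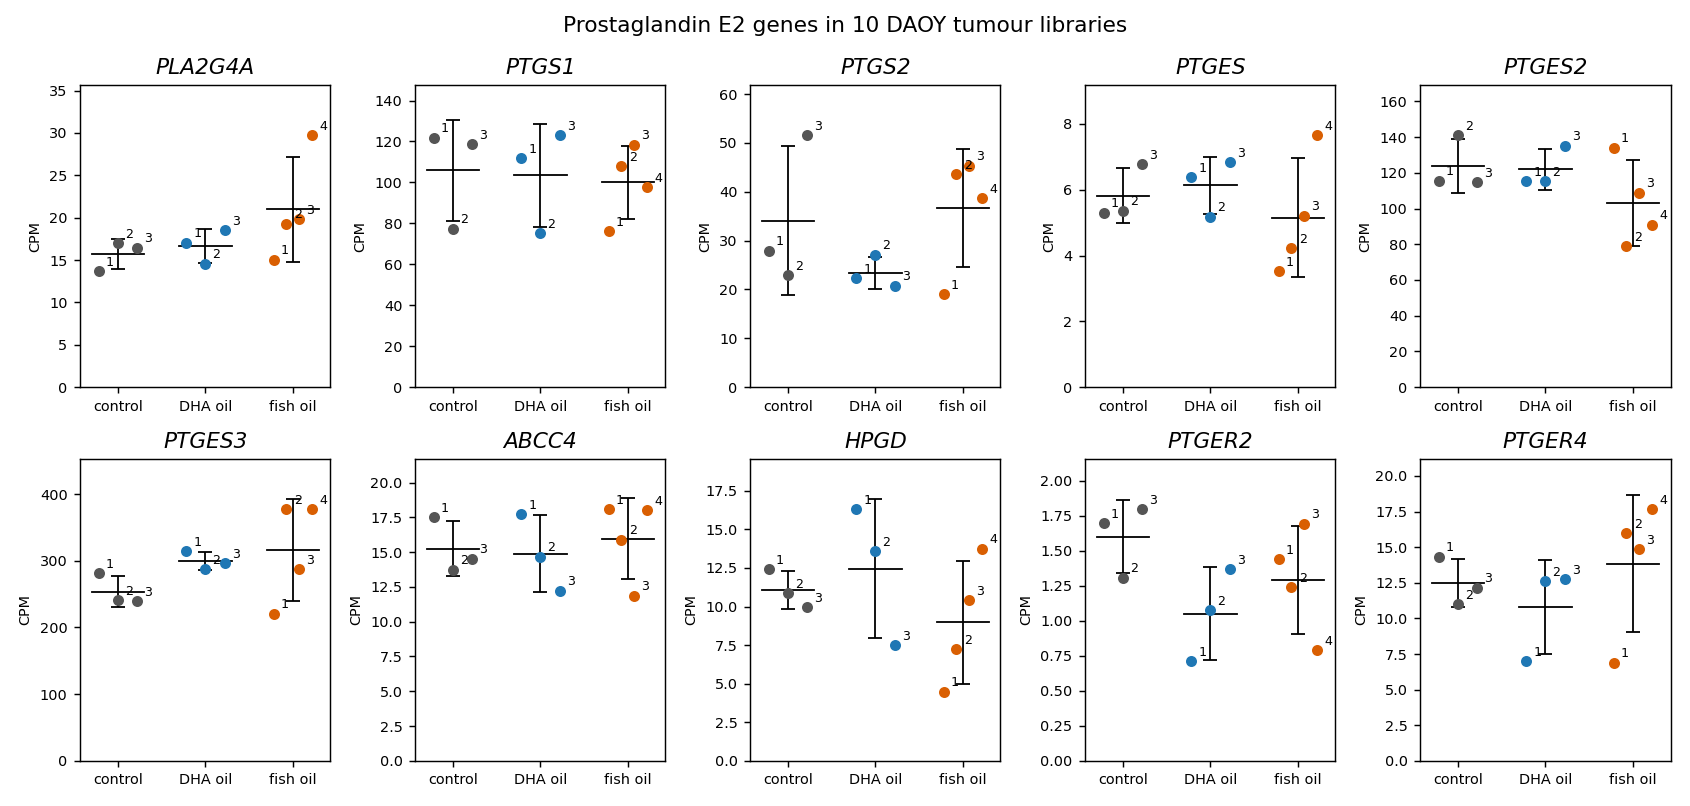
CPM (y axis, from 0) of each gene in control, DHA oil and fish oil libraries; points are libraries numbered by replicate, horizontal lines are group means and bars are 1 SD (n = 3, 3 and 4). For PTGS2, fish oil replicate 1 sits at 19.1 CPM with the DHA oil libraries while the other 3 fish oil libraries reach 38.7 to 45.3 CPM.

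PTGS1 (ENSG00000095303), the constitutive cyclooxygenase, showed no separation of the diets. Controls held 122, 77.4 and 119 CPM, DHA oil held 112, 75.3 and 123 CPM, and fish oil held 76.2, 108, 118 and 97.6 CPM. Each diet contained 1 library near 76 CPM (from 75.3 to 77.4) and others at or above 97.6 CPM, so the groups lay on top of each other. The grouping by diet took up 1.14% of the variance of PTGS1 in log2 CPM, the least of the 10 genes. Its log2 fold change was -0.04 (95% interval -0.48 to 0.41) in DHA oil and -0.08 (-0.50 to 0.34) in fish oil against control. The fish oil value was -0.12 without fish oil replicates 2 and 4.

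PLA2G4A (ENSG00000116711) encodes the cytosolic phospholipase A2 that frees arachidonic acid. Its levels were 13.7, 17.0 and 16.5 CPM in control and 17.0, 14.6 and 18.5 CPM in DHA oil. Fish oil held 15.1, 19.3, 19.8 and 29.7 CPM. In 3 of 4 fish oil libraries PLA2G4A was above every other library, and replicate 4 was far above the rest. Against control, fish oil gave a log2 fold change of 0.43 (-0.02 to 0.87), with an unadjusted p of 0.0579 and an adjusted p of 0.999 in edgeR. With each library left out, it ran from 0.21 without fish oil replicate 4 to 0.55 without fish oil replicate 1. The unadjusted edgeR p then ran from 0.0131 to 0.234. Without fish oil replicates 2 and 4 together the log2 fold change was 0.16.

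The 3 terminal synthases did not all move in 1 direction over the 10 libraries. Pearson's r of log2 CPM was -0.82 for PTGES2 with PTGES3, 0.33 for PTGES with PTGES3 and -0.04 for PTGES with PTGES2, none past adjustment. PTGES (ENSG00000148344), the microsomal synthase that is usually induced together with PTGS2, was sparse, with 22 to 68 counts per library. It stood at 5.30, 5.36 and 6.78 CPM in control, at 6.38, 5.18 and 6.85 CPM in DHA oil and at 3.52, 4.23, 5.21 and 7.66 CPM in fish oil. Fish oil held both its lowest and its highest library, and the log2 fold changes against control were 0.08 with DHA oil (95% interval -0.52 to 0.68) and -0.16 with fish oil (-0.73 to 0.41). With each library left out, the fish oil value ran from -0.42 without fish oil replicate 4 to -0.026 without fish oil replicate 1, and was -0.39 without fish oil replicates 2 and 4 together.

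PTGES2 (ENSG00000148334), the membrane-associated synthase first described in the Golgi, held 116, 141 and 115 CPM in control and 115, 115 and 135 CPM in DHA oil. Fish oil held 134, 78.9, 109 and 90.9 CPM, so 3 of its 4 libraries lay below every control and DHA oil library while replicate 1 lay near the top. Fish oil gave a log2 fold change of -0.27 (95% interval -0.61 to 0.08) against control and -0.24 (-0.59 to 0.10) against DHA oil. Without fish oil replicates 2 and 4 these were -0.03 and -0.01, and without fish oil replicate 1 they were -0.42 and -0.39.

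PTGES3 (ENSG00000110958), the cytosolic synthase better known as the HSP90 co-chaperone p23, had the highest counts of the 10 genes (1378 to 3659 per library). Control held 281, 241 and 240 CPM and DHA oil held 315, 288 and 296 CPM, so every DHA oil library was above every control library. PTGES3 was the 1 gene of the 10 whose groups did not overlap in DHA oil against control, where 10.6% of all genes tested had such groups. In fish oil against control, between the oils and for both oils together, 0 of the 10 had such groups, beside 3.74%, 4.95% and 1.12% of all genes. The log2 fold change was 0.24 (-0.14 to 0.62; adjusted p = 1.00 in edgeR). Fish oil held 221, 378, 288 and 378 CPM, from the lowest library of all to the highest, with a log2 fold change of 0.32 (-0.04 to 0.67) against control that was 0.00 without fish oil replicates 2 and 4 and, with each library left out, ran from 0.22 to 0.45 (unadjusted edgeR p from 0.00463 to 0.218). PTGES3 has processed pseudogenes of near-identical sequence, so its counts are uncertain where reads could be split among copies. PTGS2 and PTGES2 have antisense transcripts nearby, and the strand setting of the counting is not given in the sources used here.

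ABCC4 (ENSG00000125257), the efflux pump MRP4 that carries prostaglandin E2 out of cells, had the narrowest range of the 10 genes. It stood at 17.5, 13.7 and 14.5 CPM in control, at 17.7, 14.7 and 12.2 CPM in DHA oil and at 18.1, 15.9, 11.9 and 18.0 CPM in fish oil. Its highest library was 1.53 times its lowest, and its SD within diets in log2 CPM, 0.25, was close to the median of all genes tested (0.24). The log2 fold change for both oils together against control was 0.01 (-0.36 to 0.38). Fish oil against control gave 0.06, and -0.040 without fish oil replicates 2 and 4.

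HPGD (ENSG00000164120) encodes 15-hydroxyprostaglandin dehydrogenase, which inactivates prostaglandin E2 and is silenced in many tumours. It was the most uneven of the 10 genes, with a highest library 3.64 times its lowest. Control was tight, at 12.4, 10.8 and 9.96 CPM. DHA oil ran from 7.48 CPM (replicate 3) through 13.6 CPM (replicate 2) to 16.3 CPM (replicate 1), and fish oil held 4.48, 7.22, 10.4 and 13.7 CPM in replicates 1 to 4. Both oils had libraries above and below the whole control range. Its log2 fold change was 0.16 (-0.55 to 0.88) in DHA oil and -0.29 (-0.97 to 0.39) in fish oil against control, and -0.46 (-1.13 to 0.21) between the oils. With each library left out, the last ran from -0.74 without fish oil replicate 4 to -0.22 without DHA oil replicate 1, and was -0.25 without fish oil replicate 1 (unadjusted edgeR p from 0.0289 to 0.535). Without fish oil replicates 2 and 4 it was -0.71, and fish oil against control was -0.55.

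PTGER4 (ENSG00000171522) encodes EP4, a receptor that raises cyclic AMP when it binds prostaglandin E2. Control held 14.3, 11.0 and 12.2 CPM. DHA oil held 6.98, 12.6 and 12.7 CPM, and fish oil held 6.88, 16.0, 14.9 and 17.7 CPM. The first replicate of each oil was low, and the remaining fish oil libraries were above every control and DHA oil library. DHA oil overlapped control in its other libraries, and fish oil overlapped DHA oil only through fish oil replicate 1. As for PTGS2, PLA2G4A and PTGES2, the share of all genes tested with such a pattern was not computed. Between the oils the log2 fold change of PTGER4 was 0.37 (-0.23 to 0.97). It ran from 0.14 without DHA oil replicate 1 to 0.58 without fish oil replicate 1 (unadjusted edgeR p from 0.0198 to 0.629 with each library left out), and was 0.023 without fish oil replicates 2 and 4. Fish oil against control gave 0.16, which was -0.19 without those 2 libraries.

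PTGER2 (ENSG00000125384) encodes EP2, the other receptor of this kind in the set, and was close to the limit of what the depth allows. It had 6 to 16 counts per library, and means of 1.60 ± 0.259 CPM for control (SD, n = 3), 1.05 ± 0.331 CPM for DHA oil (SD, n = 3) and 1.29 ± 0.383 CPM for fish oil (SD, n = 4). At a mean of 11.0 counts, counting alone gives an SD of 0.43 on the log2 scale, more than the 0.35 seen between libraries of 1 diet, which the prior count of 2 damps. The log2 fold change for both oils against control was -0.46 (-1.17 to 0.25), an interval that includes 0. The part of depth in this result was not tested. Fish oil gave -0.33 against control and 0.26 against DHA oil, and without fish oil replicates 2 and 4 these were -0.025 and 0.57.

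The grouping by diet took up 1.14% (PTGS1) to 33.8% (PTGER2, at 6 to 16 counts per library) of the variance of a gene in log2 CPM. The median over all genes tested was 17.2%. A grouping of 10 libraries into 3 takes up some variance even without an effect, so these shares do not measure an effect of diet. The SD of log2 CPM within diets was 0.55 for HPGD, 0.51 for PTGS2 and 0.49 for PTGER4, against a median of 0.24 over all genes tested. These were larger than in 92.6%, 90.6% and 89.0% of all genes. Counting alone gives 0.15, 0.09 and 0.14 for these genes, so the spread was larger than counting error. The remaining genes other than PTGER2 had an SD within diets from 0.24 (PTGES2) to 0.34 (PTGES).

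Fish oil replicate 1 was the lowest of the 10 libraries in 5 of the 10 genes (PTGS2, PTGES, PTGES3, HPGD and PTGER4) and the highest in 1 (ABCC4). Fish oil replicate 4 was the highest in 3 (PLA2G4A, PTGES and PTGER4) and the lowest in 0. Over all genes tested, fish oil replicates 1 and 4 also held the ends of the first principal component, at -19.1 and 52.9. The share of all genes with either library lowest or highest was not computed, so these counts may not be particular to the route. The part of depth in the position of fish oil replicate 1 was not tested.

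**Figure D3:**
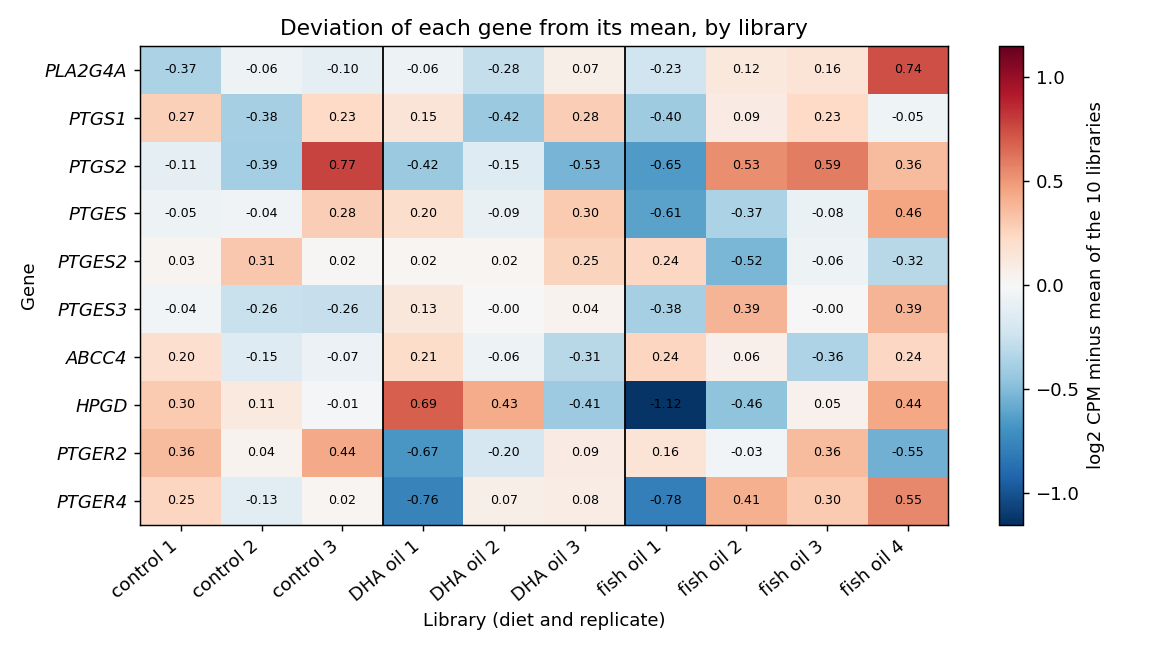
Log2 CPM of each gene (rows) in each library (columns) minus the mean of that gene over the 10 libraries, with red above and blue below; black lines separate the diets. Fish oil replicate 1 is far below the mean for HPGD (-1.12), PTGER4 (-0.78), PTGS2 (-0.65) and PTGES (-0.61), and 0.24 above it for PTGES2.

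Relations between the genes were computed over the 10 libraries for all 45 pairs, of which 9 involve PTGS2. None passed adjustment over the 45 by a permutation test of Pearson's r with 100000 resamples, and 5 had an unadjusted permutation p under 0.05. The share of all gene pairs with such a p was not computed. PLA2G4A with PTGES3 (r = 0.65, permutation p = 0.0350) and PTGES with HPGD (r = 0.64, permutation p = 0.0452) were among the 5. Without fish oil replicates 2 and 4 their r was 0.25 and 0.55. The others of the 5 follow. PTGS2 ran against PTGES2, with r = -0.70 (two-sided permutation p = 0.0218, adjusted p = 0.397) and rho = -0.73 (permutation p = 0.0204, adjusted p = 0.482). Without the 2 libraries farthest from the PTGS2 median, control replicate 3 and fish oil replicate 3, r was -0.94 (permutation p = 0.00192, adjusted p = 0.0864), and with each gene centred on its diet means it was -0.72 (p = 0.0593 by permutation within diets). Without fish oil replicates 2 and 4, r was -0.70 (permutation p = 0.0629).

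PTGS2 and the receptor gene PTGER4 ran together, with r = 0.67 (permutation p = 0.0353, adjusted p = 0.397) and rho = 0.60 (permutation p = 0.0729, adjusted p = 0.482). Without the 2 libraries farthest from the PTGS2 median r was 0.79 (permutation p = 0.0265), and without fish oil replicates 2 and 4 it was 0.57 (permutation p = 0.0973). With each gene centred on its diet means it was 0.62 (p = 0.0996 by permutation within diets). PTGS2 and its usual partner PTGES had r = 0.22 (permutation p = 0.536) and rho = 0.10 (permutation p = 0.786). With the other cyclooxygenase, PTGS1, it had r = 0.42 (permutation p = 0.219) and rho = 0.24 (permutation p = 0.514).

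The strongest pair by r was PTGES2 with PTGES3, at -0.82 (permutation p = 0.00469, adjusted p = 0.211) and rho = -0.60 (permutation p = 0.0750, adjusted p = 0.482). It rested on fish oil replicates 2 and 4, the 2 libraries farthest from the PTGES2 median, without which r was -0.48 (permutation p = 0.250). These were also the libraries that stood apart on the first principal component. With each gene centred on its diet means, r of PTGES2 with PTGES3 was -0.87 (p = 0.0419 by permutation within diets, adjusted p = 0.591). After such centring the strongest pair was PLA2G4A with PTGES, at 0.93 (p = 0.00687 by permutation within diets, adjusted p = 0.309). Uncentred, r of PLA2G4A with PTGES was 0.49, and 0.40 without fish oil replicates 2 and 4.

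**Figure D4:**
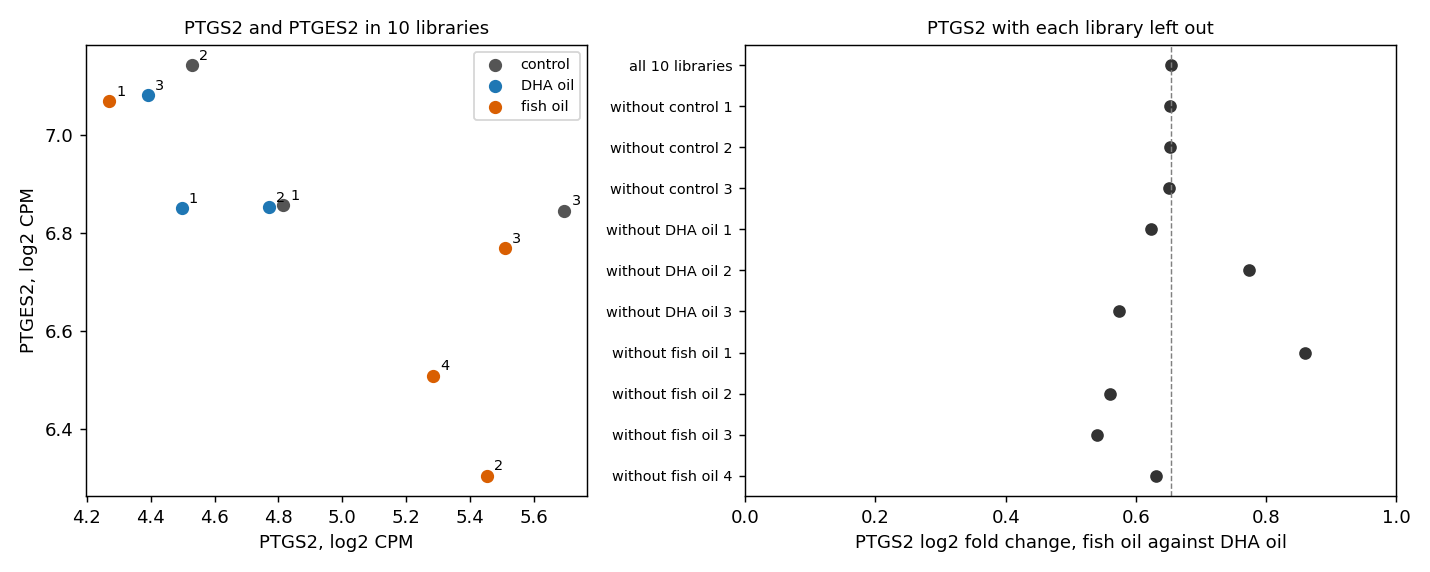
Left, PTGES2 against PTGS2 in log2 CPM, 1 point per library coloured by diet and numbered by replicate; libraries with more PTGS2 tend to have less PTGES2 (r = -0.70, not past adjustment). Right, the PTGS2 log2 fold change of fish oil against DHA oil with all 10 libraries (0.65, dashed line) and with each library left out, from 0.54 without fish oil replicate 3 to 0.86 without fish oil replicate 1.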

How the data were processed

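RNA of 10 tumours was read as single ends from stranded poly(A) libraries, per the labels' protocols. The deposited values are raw counts of reads per human Ensembl gene, which the submitters' processing notes tie to STAR, GRCh38 and HTSeq 0.9.0. The sources used here do not give the annotation release, the strand setting or any removal of mouse reads. The table pairs no symbols with its 33538 identifiers, and the mouse reference tables at hand matched 0 of them. The symbols of the 10 genes came with the definition of the set. Marker genes, other genes of the pathway, genes of like pattern, positions and sequences were therefore not analysed here. The members and lists were chosen with earlier results of these data known.

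Genes were filtered with filterByExpr (minimum count 10), given TMM scaling factors and put through the quasi-likelihood test of edgeR 4.0.16 (R 4.3.3). The single fit held the 10 libraries, with diet and no covariate. Benjamini-Hochberg adjustment ran over the 16013 genes tested, with a threshold of 0.05. SEs are the absolute log2 fold change over the square root of F; 95% intervals use the total degrees of freedom (median 14.7). Log2 CPM has a prior count of 2. All 10 genes are named. Alternatives were other scalings and filters, DESeq2 1.42.0, and limma-voom with quality weights for the libraries (limma 3.58.1). Further ones were a fit restricted to 2 diets, a replicate block, each library left out, and fish oil replicates 2 and 4 left out. Of 45 library pairs, 0 agreed within sampling noise. Precision depends on total counts (6187116 to 10035702 per library), on the spread between libraries of 1 diet and on the number of libraries.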

Additional observations from a re-analysis of the deposited data

How the results depend on the processing

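The count of the 10 genes called was 0 under every alternative run: 20 alternatives for each single comparison of 2 diets, and 19 each for both oils together and for the joint test. The smallest adjusted p was 0.405 (between the oils, without fish oil replicate 1), and leaving out each library gave a range of 0 to 0. Over all genes tested, the calls for DHA oil and for fish oil against control, between the oils and for both oils together were 0, 1, 0 and 21 with edgeR, 11, 23, 1 and 30 with DESeq2, and 3, 0, 0 and 1 with limma-voom. The labels give no mouse for any library and the same 30 days of treatment for all, so they do not pair libraries by number. Same-numbered libraries deviated together at r = -0.17 to 0.18, and 1 of 9 libraries correlated best with its own number. With the replicate block 0 of the 10 genes were called in each comparison, and 1, 0, 0 and 12 of all genes. No relation of PTGS2 passed adjustment by rho, with centring on diet means, without fish oil replicates 2 and 4, or without the 2 farthest libraries. With each library left out, r of PTGS2 was computed without a p-value. For PTGES2 it then ran from -0.83 to -0.65. The strict filter on low counts removed PTGER2. No scaling moved the median gene by more than 0.03.

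Of 786 recomputed log2 fold changes, 726 had the sign given above and 60 the other, none of them called, and the cause was not tested. With the replicate block, fish oil against control became -0.0056 for ABCC4 and -0.064 for PTGER4, PTGES3 between the oils -0.033 and ABCC4 for both oils -0.025. Without fish oil replicates 2 and 4 together, fish oil against control became -0.064 for PTGS2, -0.040 for ABCC4 and -0.19 for PTGER4, PTGES3 between the oils -0.24, ABCC4 for both oils -0.041, and r of PTGS2 with PTGES3 -0.019. With limma-voom, PTGES2 in DHA oil against control became 0.0017, ABCC4 in fish oil against control -0.069, PTGS1, PTGES3 and ABCC4 between the oils 0.043, -0.020 and -0.012, and ABCC4 for both oils -0.063. With total counts only, PTGES2 in DHA oil against control became 0.0037. Without the pair of libraries farthest from its median, r of PTGS2 became 0.25 with ABCC4 and -0.23 with PTGER2.

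With each library left out, DHA oil against control ranged from -0.0057 to 0.18 for PLA2G4A, -0.22 to 0.15 for PTGS1, -0.0078 to 0.20 for PTGES, -0.10 to 0.083 for PTGES2, -0.18 to 0.082 for ABCC4, -0.072 to 0.43 for HPGD and -0.35 to 0.018 for PTGER4. Fish oil against control ranged from -0.26 to 0.026 for PTGS1, -0.10 to 0.53 for PTGS2 and -0.0083 to 0.18 for ABCC4. Between the oils the ranges were -0.23 to 0.099 for PTGS1, -0.020 to 0.21 for PTGES3 and -0.019 to 0.25 for ABCC4. For both oils they were -0.24 to 0.050 for PTGS1, -0.43 to 0.21 for PTGS2, -0.17 to 0.081 for PTGES, -0.061 to 0.12 for ABCC4, -0.21 to 0.067 for HPGD and -0.11 to 0.089 for PTGER4. The r of PTGS2 ranged from -0.11 to 0.42 with PTGES, -0.43 to 0.062 with ABCC4 and -0.23 to 0.36 with HPGD.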

Other observations

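The ratio of PTGS2 to HPGD within a library, a measure of synthesis over breakdown at the RNA level, was formed after the values had been seen and was not tested. It does not depend on library scaling. It was 2.25, 2.11 and 5.18 in control, 1.37, 1.99 and 2.77 in DHA oil and 4.25, 6.03, 4.35 and 2.82 in fish oil. Every fish oil library lay above every DHA oil library, and the controls overlapped both. The margin was narrow, at 2.82 in fish oil replicate 4 and 2.77 in DHA oil replicate 3. A ratio picked from values already seen is no support for a difference between the oils. How many other gene ratios separate them was not computed. Fish oil replicate 1, low in PTGS2 (19.1 CPM), was lower still in HPGD (4.48 CPM, from 28 counts).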
